A study of Mus musculus with 16 samples.

Results

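The genes for the proteins of the cytosolic ribosome were followed across 16 RNA sequencing libraries of mouse acute myeloid leukaemia. Members were all rows of the deposited count table whose symbol starts with Rpl or Rps followed directly by a digit, without the Rps6k kinases and without rows marked -ps as pseudogenes. Of 23999 rows, 99 began with the stem and a digit, 10 were kinases and 6 were marked pseudogenes, which left 83 members, 49 named for the large and 34 for the small subunit. One of them, Rps19bp1, names a protein that binds Rps19 and is not part of the ribosome. The tumours were myeloid sarcomas, solid masses of leukaemia cells outside the marrow, and the marrow was whole bone marrow infiltrated by leukaemia. Every mouse carried NPM1cA, a mutant nucleophosmin, and all but one were also heterozygous for SMC3, a subunit of the cohesin ring. SMC3+/- sarcomas came from 4 mice in 6 libraries, with 2 tumours each from mice 948 and 2721, and SMC3+/- marrow came from 9 mice in 1 library each. A single sarcoma, of mouse 841, was NPM1cA with wild type SMC3. Mice 1267 and 2721 gave both tissues, and 1268_1270 could stand for 1 animal or for a pool of 2 and was treated as 1. The sources used here do not give ages, sexes, or the promoter or Cre behind the alleles.

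An ordinary ribosome holds a single copy of nearly every one of these proteins, together with ribosomal RNA. The large subunit joins amino acids and holds the tunnel through which the new protein leaves, while the small subunit threads the message and reads its codons. The messages of most of these genes are short, abundant and begin with a run of pyrimidines, the 5′ terminal oligopyrimidine (TOP) motif, through which the kinase mTORC1 and the binding protein Larp1 control their translation. Nucleophosmin is a nucleolar protein with roles in ribosome assembly, and the NPM1cA form is held mostly in the cytoplasm.

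Libraries held 9797201 to 39197660 counts. In marrow 737, 779 and 782 and in tumour 1 of mouse 948, transcripts longer than 6 kb were low, with a median log2 deviation from the median library of -2.67, -2.69, -2.47 and -1.33. Over the other 12 libraries the deviation ran from -0.99 in marrow 1267 to 0.66 in marrow 2721. Sarcoma 1268_1270 had 630 CPM (counts per 1000000 of the library's own total) over 10 pan-leukocyte genes against 5402 to 7693 CPM in the other 3 SMC3+/- sarcoma mice, and 38152 CPM over 6 adipocyte genes against 191 to 447 CPM. In marrow the pan-leukocyte sum was 6781 to 12533 CPM, and fibroblast genes summed to at most 51.9 CPM, with none of the markers at 0 in all marrows. Tumours went straight into lysis reagent whereas marrow was crushed, filtered and cleared of red cells, so tissue and handling cannot be told apart. In bulk RNA of this kind, fewer cells of a type and less RNA per cell cannot be told apart either. Smc3 itself stood at 160 CPM in the wild type tumour and at 60.5 to 224 CPM in the SMC3+/- sarcomas, and a heterozygous allele need not show in these counts.

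Ribosomal protein genes took between 1.41% and 10.8% of all counts of a library. In marrow the large subunit members summed to 0.936% of counts in the lowest sample (mouse 949), 1.86% in the median and 4.84% in the highest (mouse 737). The SMC3+/- sarcomas held 2.98% (mouse 1267), 0.762% (1268_1270), 2.57% (mouse 2721) and 4.34% (mouse 948, both tumours summed). Small subunit members summed to 0.814%, 1.59% and 5.41% in the lowest, median and highest marrow. In the sarcomas they summed to 2.38% in mouse 1267, 0.650% in 1268_1270, 2.00% in mouse 2721 and 4.09% in mouse 948. The lowest sarcoma thus lay below every marrow for both subunits, and the other 3 lay within the marrow range. Beside its low leukocyte and high adipocyte sums, that sarcoma had 55.9 CPM over 10 proliferation genes against 765 to 1950 CPM in the other 3, and the part of these in its low share was not tested. The wild type tumour of mouse 841, the shallowest library, held 2.80% (95% Wilson interval 2.79% to 2.81%) in large and 2.28% (2.27% to 2.28%) in small subunit members, inside the SMC3+/- sarcoma range. Such intervals cover counting error only and are far narrower than the spread between mice.

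**Figure D1:**
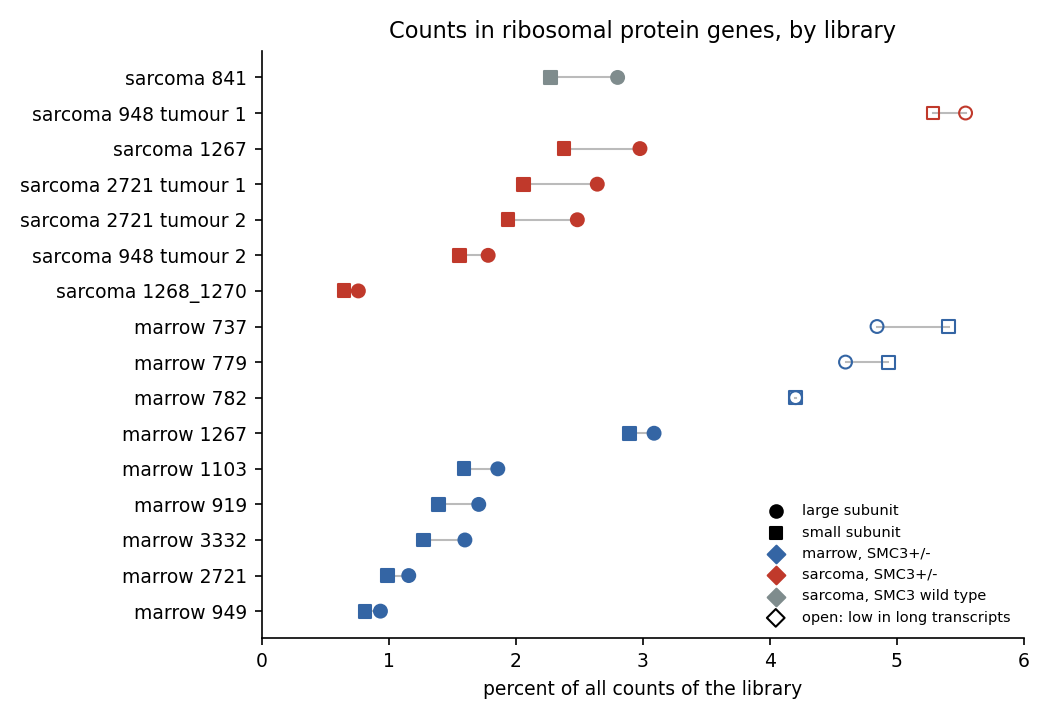
Percent of all counts of each library (x axis) taken by large subunit (circles) and small subunit (squares) members in the 16 libraries (y axis). The 4 open libraries, low in long transcripts, lie at 4.20% or more for both subunits, and the other 12 at 3.09% or less.

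The tissues were compared on the log2 percent of counts over 13 mouse and tissue samples, with the libraries of mouse 948 and of mouse 2721 sarcoma summed. Mean shares of the large subunit were 2.66% ± 1.48 (SD, n = 4) in sarcoma and 2.67% ± 1.54 (SD, n = 9) in marrow. The difference of the log2 means was -0.017, and an exact two-sided permutation test gave p = 0.973. Small subunit shares were 2.28% ± 1.42 (SD, n = 4) and 2.61% ± 1.80 (SD, n = 9). Their log2 means differed by -0.14 (exact permutation test, p = 0.825), so neither difference was told apart from 0. The test took the 13 samples as independent, although mice 1267 and 2721 gave both tissues. The direction turned with the libraries used: without the 4 libraries low in long transcripts the differences were 0.16 (exact permutation p = 0.724) and 0.11 (p = 0.800), sarcoma above marrow. Without sarcoma 1268_1270 alone they were 0.50 and 0.37 (exact permutation p = 0.409 and 0.582).

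The 4 libraries low in long transcripts held the highest shares of the series for both subunits. For the large subunit, marrow 737 held 4.84%, marrow 779 4.60%, marrow 782 4.20% and tumour 1 of mouse 948 5.54%. In the other 12 libraries the lowest, median and highest values were 0.762%, 1.82% and 3.09%. Small subunit members took 5.41%, 4.93%, 4.20% and 5.29% in the same 4 libraries, against 0.650% to 2.89% with a median of 1.58% in the rest. The groups of libraries did not overlap for either subunit. The highest of the 12 was marrow 1267, which was also the lowest of the 12 in long transcripts.

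The balance of the subunits differed between the same libraries. In the other 12 the small subunit drew 0.780 to 0.937 counts for each count of the large subunit, with a median of 0.834. Marrow 737 had a ratio of 1.12, marrow 779 of 1.07, marrow 782 of 1.00 and tumour 1 of mouse 948 of 0.954. Marrow 1267, at 0.937, was the next. By contrast tumour 2 of mouse 948 stood at 0.874, within the range of the remaining libraries. Library composition was measured beside the ratio, and its part in it was not tested.

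**Figure D2:**
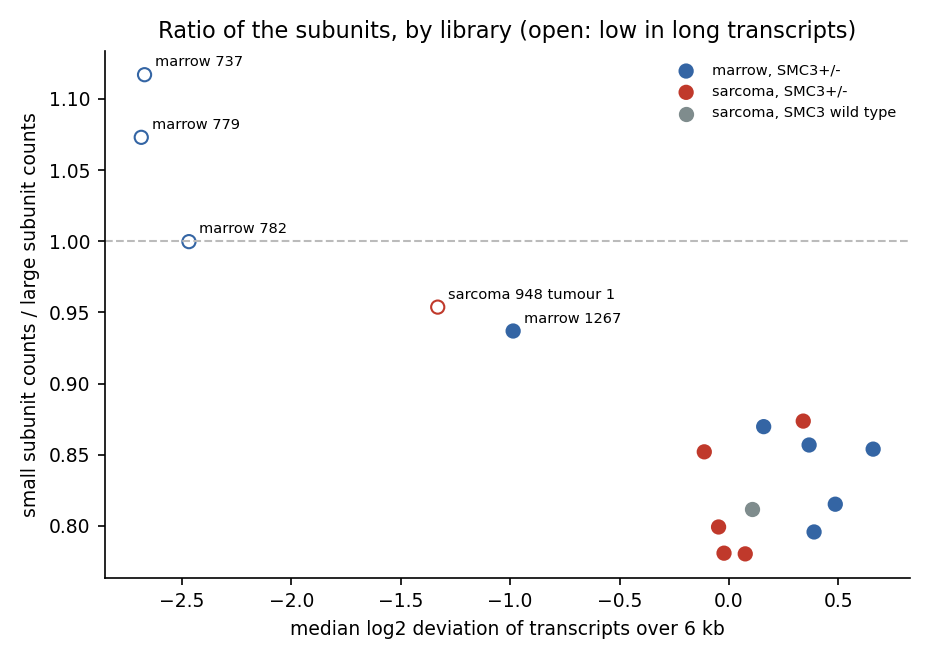
Ratio of small to large subunit counts (y axis) against the median log2 deviation of transcripts over 6 kb (x axis) in the 16 libraries, with open points for the 4 libraries low in long transcripts. Those 4 lie at 0.954 to 1.12, and marrow 1267 at 0.937 lies between them and the other 11 points.

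Within marrow, the 3 libraries low in long transcripts were set against the other 6 gene by gene. Of 77 members with a mean of at least 50 CPM over the 14 samples, 69 were higher in all 3 than in any of the 6, 39 of 46 large and 30 of 31 small subunit members. Over all genes tested at that level, 20.4% met the same condition. None of the 77 was lower in all 3 (0 of 77), as 27.7% of all genes were. The difference of mean log2 CPM had a median of 1.72 over the members, 1.60 for the large and 1.84 for the small subunit, and ran from 0.51 (Rpl29) to 2.34 (Rps14). Members were short, with a median coding length of 453 bases and a median transcript length of 780 bases, and among other genes the same difference fell with transcript length. It had a median of 1.04 in 280 other genes of up to 750 bases, 0.72 from 750 to 1500 bases, 0.10 from 1500 to 3000 bases, -0.83 from 3000 to 6000 bases and -2.83 above 6000 bases. Among the members themselves, longer coding sequence went with a smaller difference (across 77 genes of the same libraries, Pearson r = -0.29 and Spearman rho = -0.33, a description only, since genes are not replicates). Of the 8 members that fell short of the condition, 7 had marrow 1267 as the highest of the 6, among them Rpl29 and Rpl38, and Rpl7l1 had marrow 3332. Set against the other 5 marrows without 1267, an easier condition chosen after these values were seen, 75 of 77 met it. The share of all genes that met this easier condition was not computed.

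**Figure D3:**
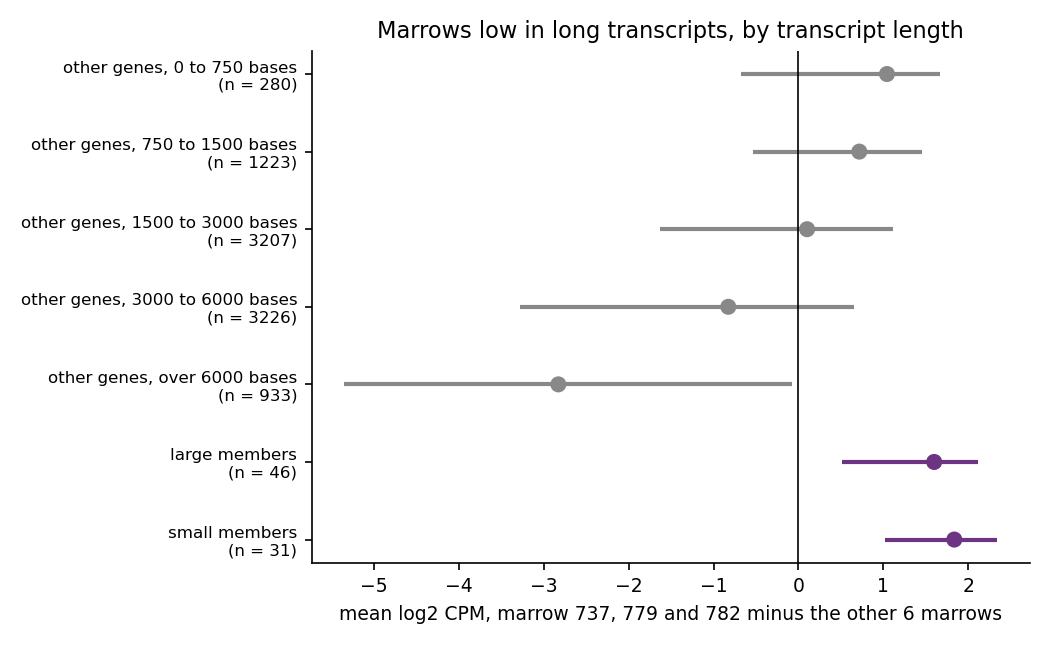
Difference of mean log2 CPM between marrow 737, 779 and 782 and the other 6 marrows (x axis) for other genes by transcript length and for large and small subunit members (y axis). Points are medians, and lines run from the 10th to the 90th percentile for other genes and from the lowest to the highest member; the member medians of 1.60 and 1.84 lie right of the 1.04 of the shortest other genes.

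Both tumours of mouse 948 came from the same animal, and the members differed between them in the direction seen in the marrows. Marker sums differed too: skeletal muscle genes had 2015 CPM in tumour 1 and 16.3 CPM in tumour 2. Primary granule genes had 15363 and 2617 CPM, neutrophil genes 86134 and 27963 CPM, and fibroblast genes 210 and 959 CPM. Pan-leukocyte genes were close, at 7808 and 7448 CPM. The part of cell content in the difference was not tested. Tumour 1 held 5.54% of its counts in large and 5.29% in small subunit members, and tumour 2 held 1.78% and 1.56%. All 81 members in the fit were higher in tumour 1, by a median of 1.70 log2 units, whereas 34.7% of all genes tested were higher there. Of the 81, 77 differed by more than 1 log2 unit, against 13.1% of all genes. In mouse 2721 the tumours were close, at 2.64% and 2.49% for the large and 2.06% and 1.94% for the small subunit. There the members differed by a median of 0.09, with 73 of 81 higher in tumour 1 against 47.6% of all genes, and 0 by more than 1 log2 unit (2.1% of all genes), the largest difference being 0.38. These are single libraries with no test.

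The mice that gave both tissues differed from each other. In mouse 1267 the large subunit took 2.98% of counts in sarcoma and 3.09% in marrow, and the small subunit 2.38% and 2.89%. Of 81 members 25 were higher in its sarcoma, against 78.0% of all genes tested, and 1 by more than 1 log2 unit (35.1% of all genes). In mouse 2721 the large subunit took 2.57% in sarcoma and 1.16% in marrow, and the small subunit 2.00% and 0.990%. All 81 members were higher in that sarcoma, where 55.9% of all genes were, and 53 by more than 1 log2 unit (24.0% of all genes). Marrow 1267 was low in long transcripts beside marrow 2721 (deviations of -0.99 and 0.66), and the part of this in the difference was not tested.

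Gene by gene, no member passed the test between tissues. With edgeR's quasi-likelihood test and Benjamini-Hochberg adjustment over 14730 genes, 81 members passed the count filter and 0 were called at an adjusted p under 0.05, where 4.55% of all genes were called, 4.49% higher and 0.0543% lower in sarcoma. That background rested on sarcoma 1268_1270: without it 1.13% of all genes were called, and 0.41% without it and the 4 libraries low in long transcripts, with 0 members in both cases. At an unadjusted p under 0.05 the count was also 0 of 81, against 13.8% of all genes, and DESeq2 called 0 members, with 0 at an unadjusted p under 0.05 (3.60% and 11.8% of all genes). The median log2 fold change, sarcoma against marrow, was -0.10 over the members, -0.04 for the large and -0.20 for the small subunit, beside 0.07 over all genes. Standard errors had a median of 0.63 log2 units among the 77 well-expressed members, which limits how small a difference could be seen. With the mouse as a block the member median was 0.30, beside 0.22 over all genes, and 0 members were called (130 of 14730 genes were). Mice with a single tissue carry no tissue difference under a block, so that fit rested on mice 1267 and 2721. Without the block and the 4 libraries low in long transcripts, the member median was 0.09, beside 0.04 over all genes. It was 0.54, beside 0.06, when marrow 1267 was dropped as well. In that last fit 8 of 81 members had an unadjusted edgeR p under 0.05 (16.0% of all genes had). The smallest edgeR adjusted p among them was 0.219 and 0 members passed (1.13% of all genes did). Without sarcoma 1268_1270 alone the member median was 0.21, beside 0.04 over all genes, again with 0 members called by edgeR. Without sarcoma 948 alone it was -0.48, beside 0.20, also with 0 members called.

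**Figure D4:**
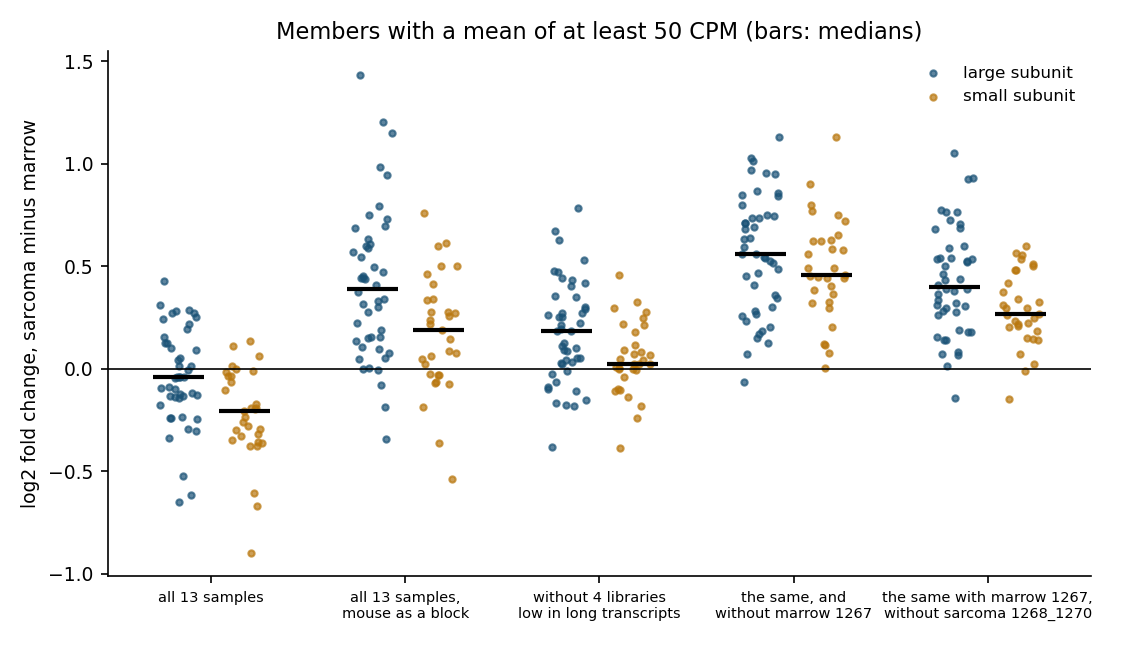
edgeR log2 fold change of sarcoma against marrow (y axis) for the 46 large and 31 small subunit members with a mean of at least 50 CPM, under 5 choices of samples (x axis), with bars at the medians. The medians are -0.04 and -0.20 with all 13 samples and no block, and 0.56 and 0.45 without the 4 libraries and marrow 1267.

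The strongest members made up a large part of the counts. Among the large subunit genes the 5 highest by mean CPM, Rpl13a, Rpl4, Rpl32, Rpl8 and Rpl7, made up 32.5% of the subunit's mean level. Rpl13a, which outside the ribosome takes part in silencing inflammatory messages, ran from 699 to 4463 CPM in marrow with a median of 1412 CPM. In the sarcomas it stood at 3110 (mouse 1267), 579 (1268_1270), 2172 (mouse 2721) and 3758 CPM (mouse 948), with 2312 CPM in mouse 841. Sarcomas 1267, 2721 and 948 lay within the marrow range and 1268_1270 below it, and the fold change was -0.05 on the log2 scale (SE 0.66, edgeR adjusted p = 0.997). Rpl4, a protein that lines the exit tunnel and has the longest coding sequence of the well-expressed members at 1257 bases, varied less. Its marrow values were 898, 1863 and 2558 CPM (lowest, median, highest), with a median above that of Rpl13a, and the sarcomas had 2514, 679, 1839 and 2514 CPM in the same order of mice. Rpl32 had a marrow median of 1021 CPM and a highest value of 3788 CPM, Rpl8, which lies beside the peptidyl transferase centre, 1393 and 3264 CPM, and Rpl7 615 and 1776 CPM.

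In the small subunit Rps3, Rps9 and Rps14 were among the highest by mean CPM. Rps3, which sits where the message enters the ribosome, had 741, 1390 and 5479 CPM in the lowest, median and highest marrow. Its sarcoma values were 2492, 524, 1465 and 4148 CPM in mice 1267, 1268_1270, 2721 and 948. Rps14, whose human version lies in the region deleted in 5q- syndrome, had 465, 835 and 5167 CPM in marrow and 1760, 420, 1234 and 3738 CPM in the sarcomas. In marrow 737 and 779 it reached 5167 and 4833 CPM, well above marrow 782 at 2400 CPM and marrow 1267 at 1843 CPM. Rps9, a neighbour of Rps3 at the entry channel, had the lowest fold change of any member that passed the filter, -0.90 (SE 0.68, edgeR adjusted p = 0.714). It ran from 934 to 4970 CPM in marrow with a median of 1460 CPM, and the sarcomas held 1464, 436, 1044 and 2300 CPM, so the groups overlapped. Without the 4 libraries and marrow 1267 its fold change was 0.00177.

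As CPM per kilobase of coding sequence, the order of the members changed. Rpl41, the shortest protein of the ribosome with 75 coding bases, was highest at 8777 CPM per kilobase, followed by Rpl32 at 4397, Rps14 at 4126 and Rpl13a at 3849. Among the 77 well-expressed members the median was 1170, and Rpl7l1, a Rpl7-like gene, was lowest at 166, a span of 52.8-fold. Rpl5 was next lowest at 321, and the small subunit alone spanned 11.5-fold. The small subunit had a median of 1502 and the large subunit 874 CPM per kilobase. Coding length leaves out the untranslated ends, which take up more of a short message, so these levels and their span are approximate. Rpl41 has a transcript of 544 bases for a mean of 658 CPM, and Rpl32 one of 711.5 bases for 1781 CPM. By transcript length Rpl41 would therefore not be first.

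Members at the ends of the range of fold changes did not pass the test either. Among large subunit members with at least 50 CPM, Rpl23a, which contacts the signal recognition particle at the tunnel exit, was highest at 0.43 (SE 0.50, edgeR adjusted p = 0.877). Its values were 146, 256 and 537 CPM in marrow (lowest, median, highest) and 423, 139, 489 and 723 CPM in sarcomas 1267, 1268_1270, 2721 and 948. Rpl39 (0.31) and Rpl22 (0.29) followed, and Rpl9 (-0.65), Rpl8 (-0.62) and Rpl36al (-0.53) were lowest. In the small subunit Rps25 (0.13), Rps27l (0.11) and Rps20 (0.06) were highest, and Rps9 and Rps13 (-0.67) lowest. In none of these did the edgeR adjusted p fall below 0.714. Rpl39, a short protein of the exit tunnel, showed the smallest p of any member, 0.0193 unadjusted and 0.219 adjusted (edgeR), without the 4 libraries and marrow 1267, where its fold change was 1.13.

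**Figure D5:**
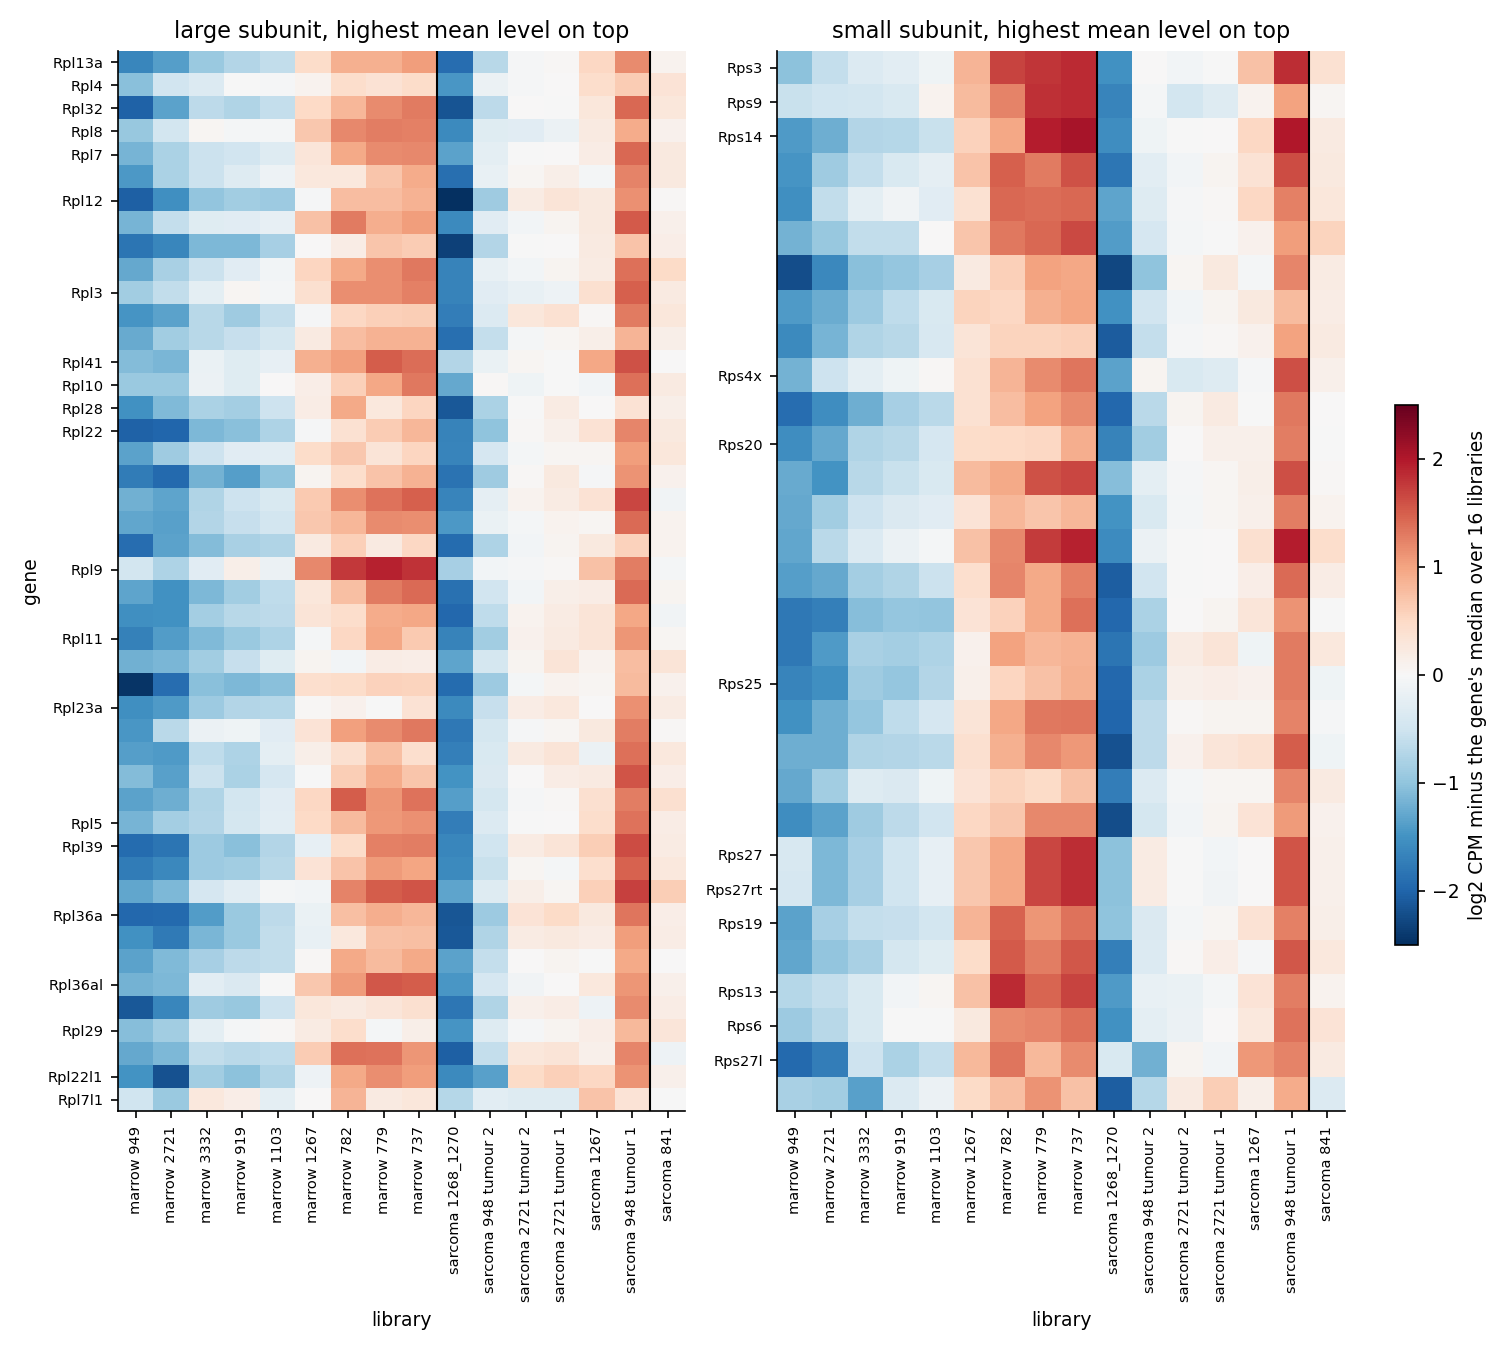
Log2 CPM of the 77 members with a mean of at least 50 CPM (rows, by subunit and falling mean level, with names on some of the members described in the text) in the 16 libraries (columns, marrow left, SMC3+/- sarcoma in the middle, the wild type tumour right), relative to each gene's median. Sarcoma 1268_1270 is lowest for 61 members and tumour 1 of mouse 948 highest for 47, counts that were not made over all genes.

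Members moved together from library to library. Of the 77, 61 were lowest in sarcoma 1268_1270, 9 in marrow 949 and 7 in marrow 2721. Tumour 1 of mouse 948 was highest for 47, marrow 737 for 17, marrow 782 for 8 and marrow 779 for 5. No library outside the 4 low in long transcripts was highest for any of the 77. The same counts were not made over all genes, so they do not show a trait particular to the members. The highest library exceeded the lowest by 3.39-fold (Rpl7l1) to 12.97-fold (Rpl12), with a median of 8.46-fold. Across the 14 samples the SD of log2 CPM had a median of 0.96, above the 0.73 of 4379 other genes at that level. Expressed as a share of the subunit's own counts, the SD fell to a median of 0.24, and it was smaller than the SD of log2 CPM for 76 of 77 members, a description that shared library effects and the common total enter. The exception was Rpl7l1, a Rpl7-like gene whose share varied most (SD 0.61), and Rps27l (0.54), Rpl29 (0.45) and Rpl9 (0.41) came next. Marrow 949, lowest of the marrows, was also lowest for genes of primary granules (2548 CPM over 5 genes against 8961 to 37358 CPM in the other marrows) and highest for 10 neutrophil genes (124100 CPM), and their part in its low share was not tested.

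Outside the 4 libraries, the shares showed no firm relation to long transcripts. Over 11 samples the deviation of transcripts above 6 kb and the log2 share had Pearson r = -0.40 (permutation p = 0.200, adjusted 0.200 over 2 relations) and Spearman rho = -0.43 (p = 0.190, adjusted 0.190) for the large subunit. For the small subunit r was -0.46 (permutation p = 0.134, adjusted 0.200) and rho -0.43 (p = 0.190, adjusted 0.190). Without marrow 1267 and marrow 2721, the 2 samples farthest from the median, r was 0.03 and 0.05, so the relation rested on them. Within the 6 marrows alone, which include both of those samples, r was -0.70 and -0.77, and no r is given within the 5 sarcomas, which are fewer than the 6 samples required here.

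The single tumour with wild type SMC3 lay inside the range of the 4 SMC3+/- sarcomas for nearly every member. Of 81 members 1 was above that range and 0 were below, beside 17.5% of all genes above and 12.5% below. Rpl28, the member above, stood at 738 CPM against 155 to 725 CPM. The range of the 4 is wide, because it runs from sarcoma 1268_1270 to mouse 948, and with 1 tumour there was no test.

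A minority of the members with a promoter sequence carried CTTTC, a short match to the pyrimidine run, near the annotated start. Such a match need not be a TOP motif, which begins the message. Promoters were matched by symbol to RefSeq windows on GRCm38.p6, which held 63 of the 83 members. From 20 bases before to 30 after the annotated start, the letters CTTTC on the sense strand occurred in 21 of 63 members (33.3%) and in 7.6% of 26962 other genes, and on the antisense strand in 11.1% and 7.3%. The ETS core CCGGAAG, searched over the whole window from 250 bases before to 50 after the start, was found in 27.0% of members and 5.3% of others on the sense strand, and in 12.7% and 5.4% on the antisense strand. The YY1 core AAGATGGC was found in 4.8% and 2.0% on the sense and 4.8% and 1.2% on the antisense strand. Matches of different motifs may overlap, and annotated starts can be off by bases that matter for a motif of this kind. Sequences of 6 of the most abundant members with the run near their start, and of the Rps27 pair, are shown to make the motif visible, each from 30 bases before to 20 after the start, with every CTTTC in capitals, overlapping ones as 1 run.
Rpl13a (chr7:45128726-45128775, minus strand): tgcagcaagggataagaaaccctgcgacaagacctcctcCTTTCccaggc
Rpl4 (chr9:64173357-64173406, plus strand): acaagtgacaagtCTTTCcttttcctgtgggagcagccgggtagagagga
Rpl12 (chr2:32961682-32961731, plus strand): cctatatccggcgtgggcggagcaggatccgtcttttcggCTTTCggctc
Rpl18 (chr7:45718041-45718090, plus strand): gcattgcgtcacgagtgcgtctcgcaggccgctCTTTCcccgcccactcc
Rpl13 (chr8:123102320-123102369, plus strand): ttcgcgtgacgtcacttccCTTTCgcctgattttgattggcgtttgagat
Rpl7a (chr2:26910777-26910826, plus strand): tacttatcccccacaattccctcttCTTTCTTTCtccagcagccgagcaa
Rps27 (chr3:90213629-90213678, minus strand): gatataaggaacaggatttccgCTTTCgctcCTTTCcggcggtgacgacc
Rps27rt (chr9:114982720-114982769, minus strand): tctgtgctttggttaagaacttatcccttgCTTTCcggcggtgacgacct
In Rpl13a the run begins downstream of the annotated start, while in Rpl4 it lies before it.

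Copies of ribosomal protein genes raise the question of which row a read was counted in. Rps27 on chromosome 3 and the retrogene Rps27rt on chromosome 9 have the same 252 coding bases in GENCODE M21, with 0 mismatches, and their rows held 139931 and 139708 counts in all, differing by at most 43 counts in a library. Reads from inside the coding sequence of this pair cannot be told apart, and both rows are counted among the members. The shared sequence is shown because a read from it matches both rows equally, and it has no capitals since nothing differs.
Rps27 and Rps27rt: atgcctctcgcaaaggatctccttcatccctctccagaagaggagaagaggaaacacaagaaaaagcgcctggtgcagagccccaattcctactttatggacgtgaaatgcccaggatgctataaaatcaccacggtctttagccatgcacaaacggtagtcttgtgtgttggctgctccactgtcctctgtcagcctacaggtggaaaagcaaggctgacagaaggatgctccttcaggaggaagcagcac
Rps27l, a Rps27-like gene that p53 can induce, has the same length but differs at 60 of 252 bases, capitalised in both lines.
Rps27: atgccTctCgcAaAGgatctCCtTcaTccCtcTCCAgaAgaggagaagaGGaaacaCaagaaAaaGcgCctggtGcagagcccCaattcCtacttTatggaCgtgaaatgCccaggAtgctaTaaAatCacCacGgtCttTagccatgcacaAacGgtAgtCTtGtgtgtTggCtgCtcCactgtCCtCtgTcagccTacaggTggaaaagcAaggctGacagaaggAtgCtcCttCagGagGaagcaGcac
Rps27l: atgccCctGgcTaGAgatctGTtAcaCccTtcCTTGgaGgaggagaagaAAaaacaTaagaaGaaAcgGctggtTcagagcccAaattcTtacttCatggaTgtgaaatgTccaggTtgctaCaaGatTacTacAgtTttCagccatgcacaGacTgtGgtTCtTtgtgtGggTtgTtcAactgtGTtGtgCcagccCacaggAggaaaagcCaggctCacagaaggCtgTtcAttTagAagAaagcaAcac
Its row behaved apart from Rps27. Rps27l had 34.5, 91.9 and 333 CPM in marrow (lowest, median, highest) and 282, 102, 132 and 230 CPM in sarcomas 1267, 1268_1270, 2721 and 948, whereas Rps27 had 150, 284 and 1175 CPM in marrow and 330, 161, 316 and 779 CPM in the sarcomas. Without Rps27rt the small subunit difference between tissues stayed at -0.14 (exact permutation p = 0.825).

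Only 3 other rows of the table came within 1% of a member's counts, and all were processed pseudogenes with nearly the same sequence. Rpl26 and Gm15772 held 184683 counts each, with 2 mismatches in 435 bases. Rpl30 and Gm12191 held 100578 and 100344 counts, with 1 mismatch in 345 bases. Rpl34 and Rpl34-ps1 held 166440 and 165855 counts, with 2 mismatches in 351 bases, capitalised below as the only bases by which a read inside the coding sequence could be assigned. The stretch from base 101 to base 351 holds both.
Rpl34: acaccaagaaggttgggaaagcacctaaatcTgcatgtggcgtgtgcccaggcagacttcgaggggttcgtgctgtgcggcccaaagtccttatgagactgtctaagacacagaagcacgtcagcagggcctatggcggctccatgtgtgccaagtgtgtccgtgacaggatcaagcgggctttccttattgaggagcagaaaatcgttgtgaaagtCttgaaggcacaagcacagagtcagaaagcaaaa
Rpl34-ps1: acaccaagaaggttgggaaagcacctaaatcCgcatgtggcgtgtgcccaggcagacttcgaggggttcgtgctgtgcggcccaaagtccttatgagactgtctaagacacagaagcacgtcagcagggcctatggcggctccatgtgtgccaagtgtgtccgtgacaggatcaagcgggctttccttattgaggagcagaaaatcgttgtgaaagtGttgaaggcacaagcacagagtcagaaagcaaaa
The sources used here do not say how reads with several matches were counted, and the levels of Rps27, Rps27rt, Rpl26, Rpl30 and Rpl34 are uncertain for that reason.

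The other paralogs differed enough to be counted apart. Rpl36a and Rpl36al share 87.7% of coding bases and had marrow medians of 150 and 158 CPM. In sarcomas 1267, 1268_1270, 2721 and 948 Rpl36a had 281, 53.4, 316 and 445 CPM, and Rpl36al had 192, 58.1, 157 and 271 CPM. Rpl22, an RNA-binding protein lost in some leukaemias, had 155, 369 and 1118 CPM in marrow and 799, 197, 662 and 1095 CPM in the sarcomas. Its relative Rpl22l1 (66.9% identity) was lower in every library, with 25.9, 69.2 and 260 CPM in marrow and 167, 38.9, 170 and 189 CPM in the sarcomas. Rpl7 had a mean of 925 CPM over the 14 samples and Rpl7l1, at 53% identity, 123 CPM.

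Forms known mainly from other tissues were at 0 or low, and a pseudogene row was low in most samples. Rpl10l, which stands in for the X-linked Rpl10 in male germ cells, had 0 counts in all 16 libraries, which allows up to 0.00875 CPM, while Rpl10 had a marrow median of 530 CPM. Rpl39l, a germ cell form, had 0 counts in the 9 marrows, which allows up to 0.0152 CPM over them, and reached 1.46 CPM (49 counts) in sarcoma 1267. Rpl3l, the form of heart and skeletal muscle, had 0.726, 2.00 and 9.48 CPM in marrow (lowest, median, highest) and 6.40, 0.776, 13.8 and 8.83 CPM in sarcomas 1267, 1268_1270, 2721 and 948, with an edgeR adjusted p of 0.738. Rpl3 stood at 307 to 1348 CPM in marrow. Summed skeletal muscle genes were 8.33, 144, 239 and 1375 CPM in the same 4 sarcomas, an order other than that of Rpl3l. Rps4l, annotated as a processed pseudogene with 79.6% identity to Rps4x, was near 0 in most samples but reached 74.3 CPM in marrow 782 and 21.9 CPM in sarcoma 1268_1270. Its marrow median was 0.143 CPM, and the X-linked Rps4x had 673 CPM.

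Genes whose human versions are mutated in Diamond-Blackfan anaemia, an inherited failure of red cell production, included 10 of the members on the list used. Of these 10, among them Rps19, Rpl5, Rpl11 and Rps26, 0 were called in either direction by edgeR (4.55% of all genes were). Their median log2 fold change was -0.12. All 10 were higher in marrow 737, 779 and 782 than in any other marrow, against 20.4% of all genes of at least 50 CPM. Of the 77 well-expressed members 69 met the same condition, so it was not particular to these 10. Rps19, the gene most often affected, had 136, 251 and 957 CPM in marrow and 439, 172, 344 and 647 CPM in sarcomas 1267, 1268_1270, 2721 and 948. Rpl5 and Rpl11, which with 5S RNA can bind Mdm2 and so stabilise p53, had marrow medians of 204 and 246 CPM. In the sarcomas Rpl5 had 330, 73.6, 244 and 488 CPM, and Rpl11 had 525, 133, 476 and 686 CPM. Rps6, the small subunit protein that the S6 kinases phosphorylate, had 110, 207 and 539 CPM in marrow and 249, 72.2, 197 and 415 CPM in the sarcomas, with a fold change of -0.33 (SE 0.58, edgeR adjusted p = 0.947).

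Ribosomal proteins that the naming rule leaves out were examined in the same way. Among 7 such genes, Rplp0, Rplp1 and Rplp2 form the stalk of the large subunit, and Rpsa and Gnb2l1 belong to the small subunit. All 7 were higher in marrow 737, 779 and 782 than in the other 6, with a median difference of 1.86. Over 9346 genes tested with a mean log2 CPM reaching 3, 15.7% were higher and 25.4% lower in all 3, and the median difference was -0.21. Between tissues 0 of 7 were called (edgeR, median log2 fold change -0.47), where 4.55% of all genes were. Their summed level was 2774 to 21429 CPM in marrow and 8205, 2201, 6514 and 15529 CPM in sarcomas 1267, 1268_1270, 2721 and 948. Rplp0 alone ran from 697 to 6558 CPM in marrow and from 537 to 4773 CPM in the sarcomas.

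Elsewhere in the translation machinery, counts in the same 3 marrows are to be read against 15.7% higher and 25.4% lower over all genes. Elongation factors and Tpt1, which also carry TOP motifs, were higher in all 3 of those marrows in 6 of 7 cases, with a median difference of 1.55, and 0 of 7 were called between tissues. Among them Eef1a1, which brings transfer RNA to the ribosome, ran from 2664 to 19458 CPM in marrow and from 2849 to 8496 CPM in the sarcomas. Of 12 subunits of the initiation factor eIF3, 6 were higher and 2 lower in all 3, with a median of 0.75, and the longer Eif3a was lowest at -4.26. In a list of 12 translation control genes, the mTORC1 arm and its regulators with Myc and Pabpc1, 2 were higher and 6 lower. Their median was -1.61, with Larp1 at -4.42. The messages are mostly long, but Myc, at 1365 bases, stood at -2.77 and Eif4e, at 4991 bases, at 1.01. Between tissues 0 of 12 were called in each of these groups by edgeR. All tissue counts given here are to be read against the 4.55% of all genes called, 4.49% higher in sarcoma. Groups of 7 or 12 genes are small, so 0 or 1 called among them says little. Mitochondrial ribosomal proteins, which serve a separate ribosome, were higher in all 3 marrows in 43 of 76 cases, with a median of 1.15, and 0 of 77 were called between tissues, with a median log2 fold change of -0.13. Of 12 measured p53 targets 1 was called higher in sarcoma, Phlda3, whose adjusted p was 0.0319 by edgeR. Phlda3 stood at 12.4, 237, 7.72 and 8.67 CPM in sarcomas 1267, 1268_1270, 2721 and 948 and at 0 to 8.42 CPM in marrow, so its level rested mostly on sarcoma 1268_1270.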

How the data were processed

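RNA of the 16 libraries was poly(A) selected and made into libraries with an NEBNext kit after spike-in RNA was added, per the labels' protocols. The authors deposited 1 table of raw counts per gene symbol. The submitters' processing notes name the mm9 build, STAR, DESeq and DESeq2, without versions or roles. The sources used here do not name the counting tool, annotation, strand setting or treatment of reads with several matches. The table held 0 spike-in rows and 0 rows without a gene name, and 0 columns belonged to other samples. CPM were computed as counts per 1000000 of a library's own total, with 0.5 added before log2. Tumour libraries of 1 mouse were added together, leaving 14 samples. The labels name the mice but say nothing of litters or batches.

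Sarcoma and marrow of SMC3+/- mice were compared with edgeR 4.0.16 in R 4.3.3 (filterByExpr, TMM, glmQLFit with robust estimation, glmQLFTest; Benjamini-Hochberg over all genes), and subunit shares with exact permutation tests in scipy 1.17.1. The standard error of a fold change was taken from the fold change and its F statistic. The fits were tested on simulated counts. Sarcoma and marrow of mice 1267 and 2721 come from the same animals per the labels, so the mouse pairs them, and the deviations of both tissues from their group means correlated at 0.30 and 0.25 across 14730 genes. Transcript and coding lengths came from GENCODE M21 on a later build than mm9, matched by symbol: 95.7% of 9267 other genes and 82 of 83 members had one. The length bins used genes whose mean log2 CPM reached 3.

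The members, the gene lists and the rule for named genes were chosen with earlier results of these data known. That rule took the 5 strongest members of each subunit, weakly detected members, the 3 highest and 3 lowest fold changes of each subunit, paralog pairs, the Diamond-Blackfan genes, Rps6, Rps14 and ribosomal proteins outside the naming rule, and some genes it takes are not reported here. Rpl41, Rpl28, Rpl12, Rps19bp1 and the genes singled out for their variability were picked after their values were seen. Alternatives were DESeq2 1.42.0, other scalings and filters, tumour libraries as units, mouse blocks and samples left out.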

Additional observations from a re-analysis of the deposited data

Results flagged for a closer look

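Values that stood apart within a tissue were sought in groups of 4 to 9 samples, over 169 combinations of group and member or share, where chance alone marks about 1 in 20. Only 3 were found. Rps4l stood at 74.3 CPM in marrow 782 against a marrow median of 0.143 CPM, and its distance to the next marrow was 0.940 of the whole range. Rpl28 stood at 155 CPM in sarcoma 1268_1270 against a median of 694 CPM over the 4 SMC3+/- sarcoma mice (0.912 of the range). In the same tumour Rpl22l1 stood at 38.9 CPM against a median of 169 CPM (0.858 of the range).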

How the results depend on the processing

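The tissue comparison of members called 0 higher and 0 lower in every alternative run: DESeq2, size factors by RLE, library totals, TMM without the members, no count filter, tumour libraries as samples, first tumours, the mouse as a replicate block (all samples, or mice 1267 and 2721 alone), samples left out, and scaling to summed member counts, which was chosen after seeing the data. Over all genes the calls by edgeR fell from 670 to 130 with the replicate block to 114 with the 2 mice alone, to 170 without sarcoma 1268_1270 and to 62 without it and the 4 libraries low in long transcripts, and rose to 1368 with no count filter. The block changed no member call. Differences in subunit share were small and their sign was not stable, with every exact permutation p at 0.214 or above. The large subunit difference of -0.017 became 0.0185 with each tumour library as a sample, 0.0816 with first tumours only, 0.0921 as the median over members and 0.16 without the 4 libraries low in long transcripts. The small subunit difference of -0.14 became 0.11 without those 4. Leaving out marrow 1267 as well gave 0.35 and 0.33, and leaving out sarcoma 1268_1270 in its place gave 0.57 and 0.51, both chosen after seeing the data. With single samples left out, the large subunit difference ran from -0.33 (without sarcoma 948) to 0.50 (without sarcoma 1268_1270) and the small from -0.52 to 0.37 in the same cases. The fold change of Rps9 was 0.00177 without the 4 libraries and marrow 1267, and Rpl23a kept its sign in all alternatives run. The cause of these changes was not tested. Counting error in the shares was small beside the spread between mice. That spread was wide in both tissues, with an SD of the large subunit share of 1.48 in sarcoma and 1.54 in marrow. Only 4 sarcoma mice were available.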
